A study of Mus musculus with 3 samples.

Results

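Basophil and mast cell progenitors were 454 of the 26887 good-quality cells sequenced from newborn mouse liver, 129 of 5777 in the Control library, 171 of 11148 in the MLL-ENL library and 154 of 9962 in the Skida1-deleted MLL-ENL library. They were chosen by RNA, so the genes of the rule describe the cells and test nothing. A good-quality cell had at least 1000 gene UMIs (unique molecular identifiers, each one counted RNA molecule), at least 500 genes and under 10% mitochondrial UMIs. A member had a UMI in at least 3 of 9 genes (Cpa3, Ms4a2, Fcer1a, Mcpt8, Prss34, Hdc, Gzmb, Tpsb2 and Mcpt4), with the 9 together at 8 or more per 10000 gene UMIs. The study is a CITE-seq experiment, which reads the RNA and a panel of antibody tags on the same single cells, on lineage-negative KIT-positive progenitors sorted from livers at postnatal day 0. Control mice, mice labelled MLL::ENL, a fusion of the histone methyltransferase gene MLL (Kmt2a in the mouse) with ENL (Mllt1) found in acute leukaemia, and mice labelled MLL::ENL with Skida1 deleted gave 1 library each. The fusion is thus shared by the second and the third library, and Skida1 deletion without the fusion is not among the groups. The labels give no alleles, promoters or Cre lines, no strain and no number of animals in a library. With 1 library per group there is no replicate check and no test. Every interval is an exact 95% interval that covers counting error only, and levels given in a row stand in the order Control, MLL-ENL, Skida1-deleted.

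Basophils and mast cells are granulocytes that carry the IgE receptor and store histamine and serine proteases bound to proteoglycan in their granules. Both arise from KIT-positive progenitors under the transcription factor GATA2. C/EBP alpha pushes such progenitors towards basophils and MITF towards mast cells, and mature basophils lose KIT while mast cells keep it and need it. In the mouse Mcpt8 and Prss34 encode proteases of basophils, whereas Mcpt4, Cma1 and the tryptases Tpsb2 and Tpsab1 belong to connective tissue mast cells.

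The members were shallower than the cells around them: their median was 15408, 11340 and 10680.5 gene UMIs, against 29810.5, 14272 and 18781.5 in the other kept cells. Their single cells spanned 1046 to 72034 UMIs. With every cell thinned to 3000 UMIs, the rule found 1.35, 1.16 and 0.930% of the cells, so the depth of a cell enters the count. A doublet caller marked 6, 2 and 4 members, and 5, 7 and 2 members held at least 6 of 13 non-globin erythroid markers. These cells were kept, as the rule has it. The libraries shared 16 to 23 cell barcodes pairwise, none of them in members. The Control and MLL-ENL members had Xist at 907 and 1540 CPM (counts per 1000000 gene UMIs, summed over the cells of a set) and no Ddx3y UMI, while the Skida1-deleted members had Xist at 8.63 and the Y-linked Ddx3y at 57.2 CPM. Sex therefore cannot be told apart from Skida1 deletion in these libraries.

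The 9 genes fitted the name of the cells in part. Hdc, the enzyme that makes histamine, had a UMI in 99.2, 98.2 and 98.1% of members, and Cpa3, the mast cell carboxypeptidase, in 99.2, 94.2 and 94.2%. Ms4a2, the beta chain of the IgE receptor, had one in 75.2, 69.0 and 87.7%. In erythroid cells, which should lack these genes and had median depths of 36984, 28937 and 29167 UMIs, the shares were 4.16 to 7.18% for Hdc, 2.65 to 4.29% for Cpa3 and 1.05 to 1.32% for Ms4a2. At 3000 UMIs a member, Hdc remained detected in 72.8, 77.4 and 73.4% and Ms4a2 in 62.4, 56.0 and 64.9%. Other markers were nearly absent: Fcer1a, the alpha chain that binds IgE, gave 11, 23 and 1 UMIs over all members of a library, and the granzyme gene Gzmb 7, 12 and 10, with all 12 of MLL-ENL in 1 cell. Mpo, the myeloperoxidase of granulocyte progenitors, stood at 2871, 2259 and 2764 CPM in members against 354, 246 and 294 CPM in other kept cells. The summed level of the neutrophil progenitor markers in members was 6115, 4169 and 4943 CPM, and its part in any result was not tested.

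Few cells lay at the edge of the sum and many at that of the gene number. In Control 8 cells lay just outside it (a sum of 7 to 8 per 10000 with 3 genes) and 5 just inside (8 to 9), in MLL-ENL 13 and 7, and in Skida1-deleted 12 and 17. A further 25, 74 and 43 cells reached the sum with UMIs in only 2 of the 9 genes. Of the members, 49, 78 and 64 had exactly 3 of the 9 genes, and 46, 53 and 43 had 5 or more.

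The members fell into cells rich in basophil proteases, cells rich in mast cell proteases and a larger number with neither. A pair of genes was called high in a cell at 5 or more per 10000 UMIs. Mcpt8 and Prss34 were high in 39, 57 and 45 members, Mcpt4 and Tpsb2 in 22, 27 and 6, and neither pair in 68, 87 and 103. Both pairs were high in only 8 of the 454 cells (4, 2 and 2), which are counted here with the Mcpt4/Tpsb2-high cells. Those 8 cells had no Mcpt8 UMI, 35, 16 and 14 Prss34 UMIs, and 1019, 346 and 351 UMIs of Cma1. Counting them there was chosen after seeing the data, since apart from them Control had 18 and Skida1-deleted 4 such cells, under the minimum of 20 for a comparison.

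**Figure D1:**
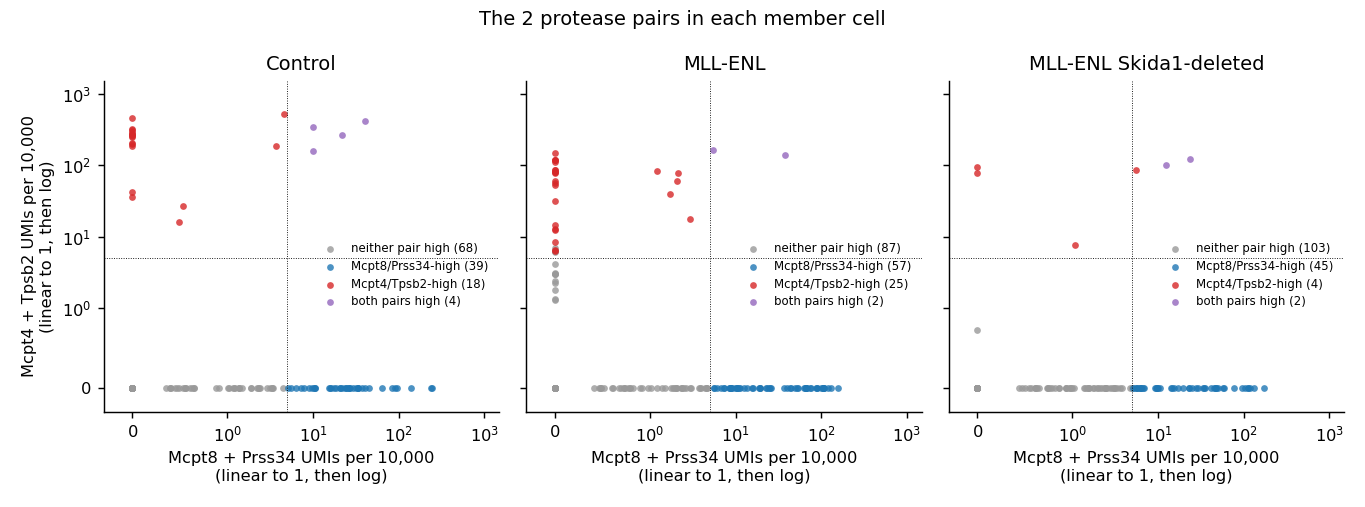
Each point is 1 member, placed by its Mcpt8 plus Prss34 UMIs (x axis) and its Mcpt4 plus Tpsb2 UMIs (y axis) per 10000 gene UMIs, in 1 panel per library, with both axes linear to 1 and logarithmic above. Dotted lines mark 5 per 10000, and few points (4, 2 and 2) lie above both lines, while the upper left holds 18, 25 and 4 cells.

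The genes of both pairs lie near each other in the genome. On chromosome 14 (GRCm38.p6), Cma1 (55941451 to 55944675), Mcpt4 (56059744 to 56062310), Mcpt8 (56082163 to 56085499), the cathepsin gene Ctsg (56099885 to 56102574) and Gzmb (56258836 to 56262334) fit in 321 kb, and Mcpt4 ends 19.9 kb from Mcpt8. On chromosome 17, Prss34 (25298394 to 25300168), Tpsab1 (25343245 to 25345562), Tpsb2 (25366308 to 25368096) and Tpsg1 (25369195 to 25374442) fit in 76.0 kb. The sides were set by Mcpt8, Prss34, Mcpt4 and Tpsb2, so the split itself tends to place these neighbours on opposite sides. Mcpt8 had 1 UMI in all 55 Mcpt4/Tpsb2-high cells. Prss34 was not confined in this way. Thinned to 3000 UMIs, 6 of 20, 6 of 26 and 4 of 6 Mcpt4/Tpsb2-high cells held Prss34, and all of them held Tpsb2. Cma1, which set neither side, had a UMI in 1 of 39, 9 of 57 and 4 of 45 Mcpt8/Prss34-high cells. The tryptase genes Tpsb2 and Tpsab1 are close copies, as are members of the chymase cluster, so reads may be shared between copies and their separate levels are uncertain.

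The 250 bases before an annotated start of Mcpt8, Prss34, Mcpt4 and Cma1 are shown. The start used for Mcpt8 lies inside the gene span given above, and the others lie at the ends of theirs. No Mcpt4/Tpsb2-side gene of the chromosome 17 cluster is among them. The sequences are RefSeq's on GRCm38.p6, 5′ to 3′ on the strand of the gene, and capitals mark a GATA motif (TGATAA or AGATAA or TGATAG or AGATAG on either strand, letters bound by GATA factors) or an E-box (CATGTG or CACATG or CACGTG, letters bound by MITF and related factors). The windows are chr14:56085198-56085447 on the minus strand for Mcpt8, chr17:25298144-25298393 on the plus strand for Prss34, chr14:56062311-56062560 on the minus strand for Mcpt4 and chr14:55944676-55944925 on the minus strand for Cma1.
Mcpt8: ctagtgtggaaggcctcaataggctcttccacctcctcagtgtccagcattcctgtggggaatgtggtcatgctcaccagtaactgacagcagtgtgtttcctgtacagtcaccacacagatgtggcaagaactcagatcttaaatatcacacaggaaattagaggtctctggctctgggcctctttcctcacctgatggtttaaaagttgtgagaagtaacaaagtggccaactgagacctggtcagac
Prss34: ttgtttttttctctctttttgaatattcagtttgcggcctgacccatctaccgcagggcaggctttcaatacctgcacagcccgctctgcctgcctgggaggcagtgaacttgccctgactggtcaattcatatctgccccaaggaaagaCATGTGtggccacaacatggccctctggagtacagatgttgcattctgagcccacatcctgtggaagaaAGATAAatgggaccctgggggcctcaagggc
Mcpt4: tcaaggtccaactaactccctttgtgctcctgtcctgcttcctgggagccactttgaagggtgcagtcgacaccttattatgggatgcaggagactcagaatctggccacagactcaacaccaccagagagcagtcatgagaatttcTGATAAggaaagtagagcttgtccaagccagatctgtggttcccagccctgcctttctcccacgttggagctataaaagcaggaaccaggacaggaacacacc
Cma1: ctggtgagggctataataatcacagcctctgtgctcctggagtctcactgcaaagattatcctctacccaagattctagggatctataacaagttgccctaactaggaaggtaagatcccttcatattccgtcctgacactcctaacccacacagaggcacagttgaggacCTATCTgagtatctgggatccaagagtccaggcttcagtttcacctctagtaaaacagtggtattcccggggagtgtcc

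The Prss34 window holds AGATAA 31 bases and CATGTG 100 bases before the start, the Mcpt4 window TGATAA at 103 bases and the Cma1 window AGATAG on the other strand at 79 bases. The Mcpt8 window, which lies inside the span given for the gene, holds neither kind of motif. The bases before the outer end of that span were not searched. Of all 32851 windows of this length in the RefSeq table, 26.5% hold a GATA motif and 17.6% an E-box, so a match is common and is no sign of a site in use. Of the 12 mast and basophil genes looked up, 10 had a sequence, and Tpsb2 and Tpsab1 did not.

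Mcpt8/Prss34-high cells paired the basophil proteases with the IgE receptor beta chain and with secreted factors. Ms4a2 stood at 820, 683 and 596 CPM in them against 27.5, 7.16 and 101 in Mcpt4/Tpsb2-high cells, although both are IgE receptor-bearing lineages. Csf1, the macrophage growth factor, had 178, 162 and 92.2 CPM against 0, 7.16 and 33.7 (0, 1 and 1 UMIs), and Hgf, hepatocyte growth factor, had 113, 169 and 153 CPM against no UMI in any of the 55 cells. The apolipoprotein gene Apoc1 had 184, 430 and 586 CPM against none, and the muscle LIM protein gene Csrp3 345, 271 and 264 CPM against 4.59, 0 and 0. Csf1, Hgf, Apoc1 and Csrp3 were therefore high on this side in all 3 libraries, with at most 1 UMI of each per library on the other. At 1.5-fold or more in both Control and MLL-ENL, the libraries with at least 20 cells on each side, 1588 of 9055 measured genes (17.5%) were higher in Mcpt8/Prss34-high cells and 810 (8.95%) in Mcpt4/Tpsb2-high cells.

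Cebpa and Mitf had opposite patterns on the sides. Cebpa, the granulocyte and basophil factor, stood at 147, 67.5 and 31.3 CPM in Mcpt8/Prss34-high cells and at 4.59, 0 and 0 in Mcpt4/Tpsb2-high cells. Mitf, the mast cell factor, went the other way, with 59.7, 64.5 and 269 CPM (13, 9 and 8 UMIs) against 1.43, 1.32 and 0. Gata2 was present on both sides at 481, 375 and 312 CPM against 225, 279 and 370, higher on the basophil protease side in Control and MLL-ENL and lower there in Skida1-deleted. Runx1 and the LIM-only gene Lmo4, both transcription regulators, were at 441, 396 and 361 and at 1027, 933 and 859 CPM on the Mcpt8/Prss34 side. On the Mcpt4/Tpsb2 side they were at 27.5, 93.1 and 0 and at 27.5, 158 and 168 CPM. Of 25 measured factors of the list on basophil, mast cell and myeloid fate, 9 were higher on the Mcpt8/Prss34 side and 8 on the Mcpt4/Tpsb2 side in both libraries compared, beside 17.5% and 8.95% of all genes.

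Mcpt4/Tpsb2-high cells carried several connective tissue mast cell genes that were all but missing from the other side. Of the 2 genes that set this side, Tpsb2 had a UMI in all 22, 27 and 6 cells. Mcpt4 had one in only 8, 1 and 2 of them. Cma1, the chymase gene and no part of the rule, had a UMI in every one of the 22, 27 and 6 cells, at 22826, 18333 and 32425 CPM against 1.43, 13.2 and 11.1 on the other side. Tph1, the first enzyme of serotonin synthesis, had 2414, 215 and 404 CPM and Calca, which encodes calcitonin and CGRP, 1831, 430 and 135 CPM, against at most 1 UMI per library in Mcpt8/Prss34-high cells. The serotonin transporter gene Slc6a4 and the amine oxidase gene Maob had 106, 229 and 404 and 45.9, 208 and 572 CPM, against at most 1.43 and 2.65 CPM. Mrgprb2, the receptor by which peptides and some drugs set off mast cells, had 170, 14.3 and 337 CPM against none, with a UMI in 15, 2 and 4 cells. Kit itself had 275, 773 and 1145 CPM against 138, 167 and 184, and Il1rl1, the interleukin-33 receptor, 436, 465 and 741 CPM against 99.9, 75.5 and 36.9. Both receptors were higher on the mast protease side in each library.

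Of 18 measured mediator genes 7 were higher in Mcpt4/Tpsb2-high and 3 in Mcpt8/Prss34-high cells, with rule genes among them, beside 8.95% and 17.5% of all genes. Granule proteases are not counted here, since the genes that set the sides are among them. Cpa3 was at 3859, 9661 and 10842 CPM on the mast protease side and 732, 1431 and 1191 on the other, and Hdc at 1432, 1869 and 2492 against 411, 425 and 400. Of 39 measured G2M genes, which act in mitosis, 12 were higher on the Mcpt8/Prss34 side and none on the other. Of 36 S phase genes 4 and none were, a smaller share than that of all genes on the Mcpt8/Prss34 side, and of 23 interferon-inducible genes 8 and none. Mcpt4/Tpsb2-high cells were much shallower, with medians of 4528, 4625 and 4009.5 UMIs against 16701, 11585 and 9921, and the part of depth in these counts was not tested. In Control 3 of the 22 Mcpt4/Tpsb2-high cells were called doublets with at least 6 erythroid markers, and these held 56.2% of the UMIs of the set.

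**Figure D2:**
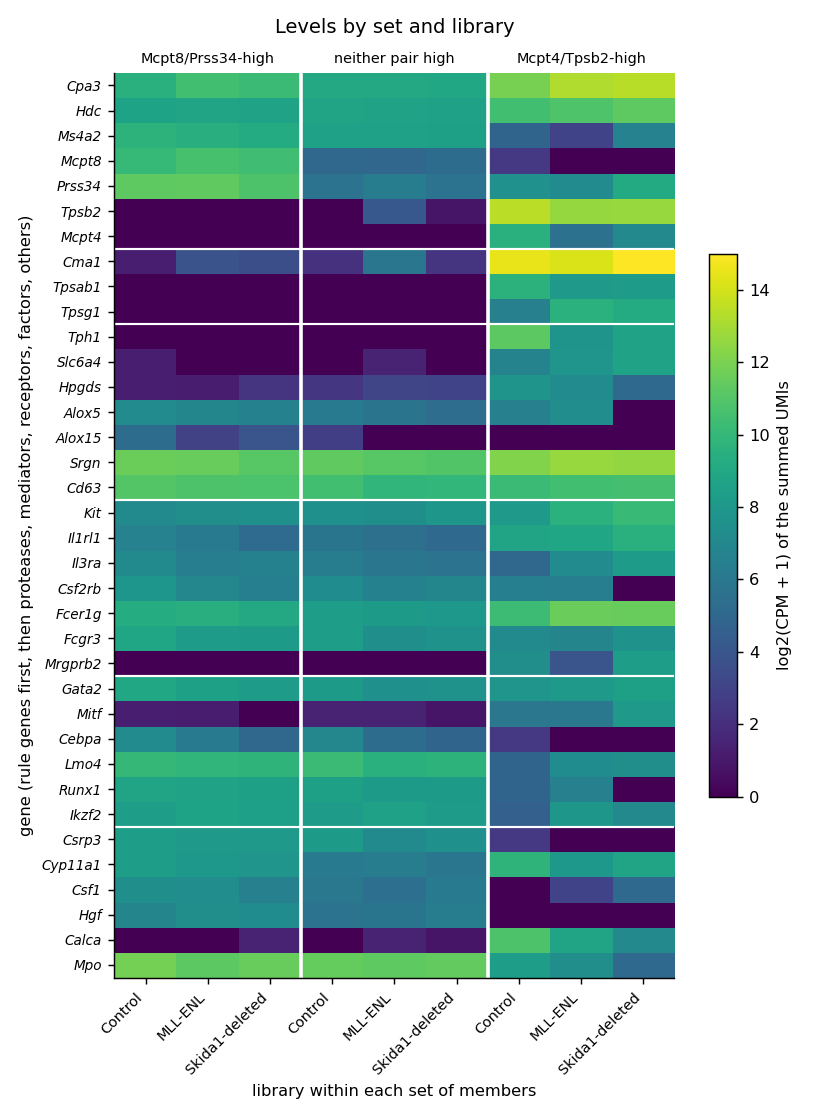
Colours give log2(CPM + 1) of the summed UMIs for each gene (rows, in blocks from rule genes to others) in each library (columns), with the columns grouped into Mcpt8/Prss34-high, neither pair high and Mcpt4/Tpsb2-high cells. Cma1, Tph1 and Calca are brightest in the right block, Csrp3, Csf1, Hgf and Cebpa are dark there, and Cpa3 and Hdc are bright in all 9 columns.

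Members with neither pair high were near the Mcpt8/Prss34 side in Hdc but below it in Ms4a2, Cpa3 and Gata2 in each library. They held Hdc at 434, 391 and 390 CPM and Ms4a2 at 385, 376 and 369 CPM, Cpa3 at 536, 530 and 506 CPM, and Mcpt8 at 33.2, 30.6 and 38.2 CPM. Gata2 stood at 286, 184 and 203 CPM and Mpo at 2821, 2461 and 2736 CPM. Cma1 was at 3.32 and 3.9 CPM in the Control and Skida1-deleted cells but at 57.6 CPM in those of MLL-ENL, where 7 of the 87 cells had 10 or more Cma1 UMIs per 10000. Their summed G2M level was 5702, 3773 and 3945 CPM, beside 7138, 3220 and 3175 CPM in Mcpt8/Prss34-high cells.

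The antibody tags, which the rule did not use, differed between the sets in all 3 libraries. CD16/32, the IgG receptors encoded by Fcgr3 and Fcgr2b, had a median of 771, 545 and 427.5 tag counts per member against 29, 21 and 17 in other kept cells. Its median was 1092, 985 and 927 in Mcpt8/Prss34-high cells, 969, 702 and 727 in Mcpt4/Tpsb2-high cells and 430, 350 and 343 where neither pair was high. As a share of all tag counts, the CD16/32 median of Mcpt8/Prss34-high over Mcpt4/Tpsb2-high cells turned from 1.13 to 0.829 in Control and from 1.28 to 0.812 in Skida1-deleted, so the order of the sides depends on the scale. CD48, an adhesion molecule of the SLAM family, separated the sides: 1490, 1447 and 1286 in Mcpt8/Prss34-high against 532.5, 411 and 429.5 in Mcpt4/Tpsb2-high cells. CD41, the platelet integrin alpha IIb, had medians of 21, 16 and 16 against 3, 3 and 2.5, and of 31, 26 and 31 where neither pair was high. CD34 went the other way, with 23, 24 and 35 against 40.5, 124 and 193.5. KIT (CD117), on which the cells were sorted, was at 406, 330 and 335 against 501, 428 and 604. So the mast protease side was lower in CD48 and CD41 and higher in CD34 and KIT tags in each library, with 3 libraries as the only replicates of the direction and a smallest possible exact two-sided p of 0.25.

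The CD127 tag, on the interleukin-7 receptor, was high on the mast protease side of Control. The median Sca-1 tag was 97 in the 22 Control cells and 20 and 33 in the MLL-ENL and Skida1-deleted ones, and the CD127 tag 38, 5 and 5. The ratio of Mcpt4/Tpsb2-high to Mcpt8/Prss34-high medians was 1.80, 1 and 1.83 for Sca-1 and 6.33, 1.25 and 1.67 for CD127. In other kept cells the medians were 53, 25 and 21 for Sca-1 and 6, 5 and 3 for CD127, so the Sca-1 tag was lower in both fusion libraries there too. In RNA, Il7r had 133, 21.5 and 101 CPM (29, 3 and 3 UMIs) in Mcpt4/Tpsb2-high cells, so it was low in MLL-ENL but not in Skida1-deleted, unlike the CD127 tag. Ly6a, the Sca-1 gene, had 27 UMIs in Control and none in the others. The difference in tags between libraries was not tested.

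**Figure D3:**
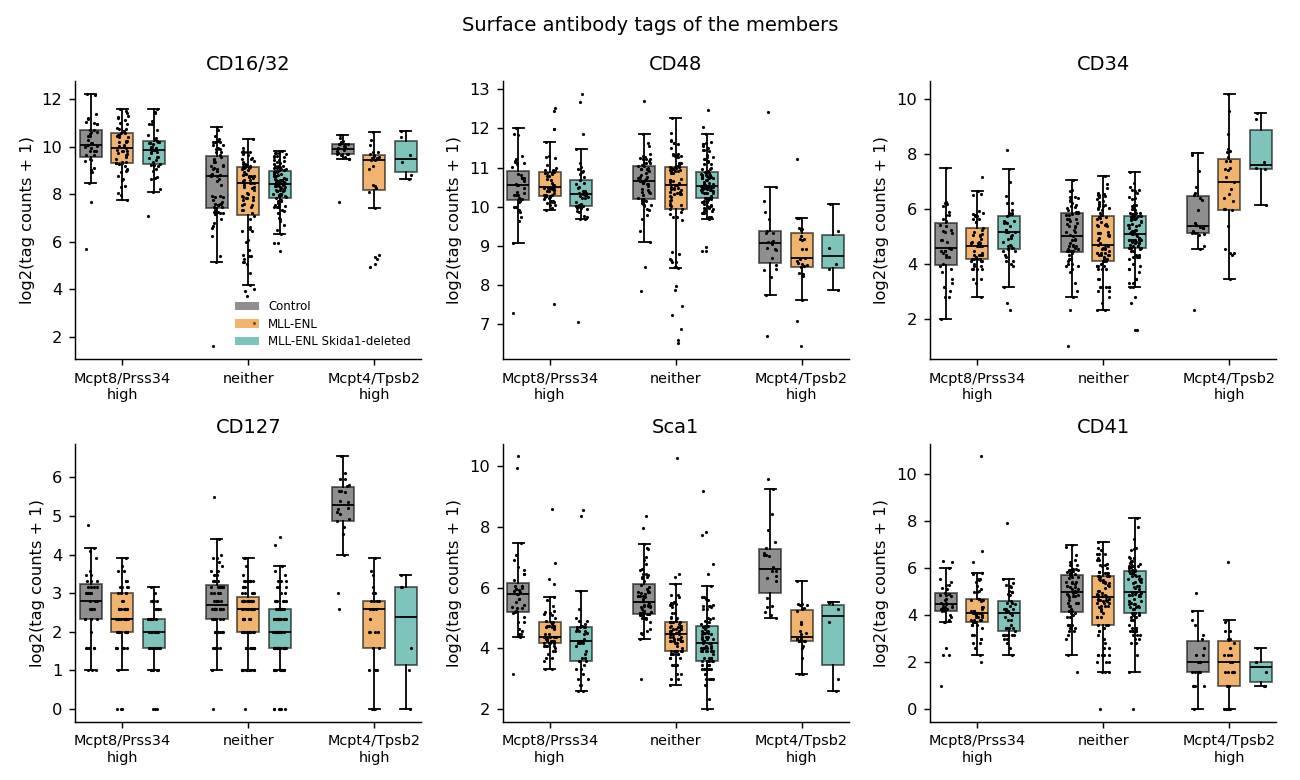
Boxes show the quartiles of log2(tag counts + 1) per cell for 6 antibody tags, by set (x axis) and library (colour), with whiskers to 1.5 times the box height and each cell as a dot. CD48 and CD41 are lower and CD34 higher in Mcpt4/Tpsb2-high cells of every library, and CD127 is high there in Control.

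Against the other kept cells of the same library, the members added a shared set beyond the 9 rule genes. At least 1.5-fold in all 3 libraries, 1211 of 8953 measured genes (13.5%) were higher in members and 954 (10.7%) lower. Because the cells were chosen by RNA, these levels are a description. Many of the other cells were erythroid: 3566 of 5648, 5076 of 10977 and 4760 of 9808 held at least 6 of 13 non-globin erythroid markers. Members were not compared with other myeloid progenitors alone, so these genes need not be particular to basophil and mast cell progenitors. Csrp3 was at 279, 180 and 206 CPM in members against 3.03, 2.12 and 2.16 CPM in other cells, Cyp11a1, the steroid side-chain cleavage enzyme, at 239, 156 and 113 against 1.27, 1.95 and 2.16, and Csf1 at 95.2, 84.8 and 79.3 against 0.909, 1.37 and 1.41. The tetraspanin gene Cd63, a marker of granule membranes, was at 1602, 1296 and 1192 CPM against 53.0, 49.8 and 53.7. Gata2 was at 344, 261 and 237 CPM against 26.1, 23.9 and 26.1, and Il3ra, the interleukin-3 receptor, at 93.3, 75.5 and 67.4 against 9.72, 8.66 and 8.73. The IgE receptor gamma chain gene Fcer1g had 522, 627 and 377 CPM against 31.6, 38.9 and 37.1.

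Lists without the rule genes went the same way. Of 15 measured mediator genes 10 were higher in members in all 3 libraries and none lower, of 13 IgE receptor signalling genes 9 and none, and of 14 surface genes 11 higher and 1 lower. Of 13 cytokine receptor genes 7 were higher and 2 lower. S phase genes were lower in 15 of 36 and higher in 1, while only 2 of 40 G2M genes were lower. Kit was close to its level in other cells at 176, 212 and 239 CPM against 188, 198 and 226, and Gata1 was lower at 54.2, 35.3 and 44.8 CPM against 73.4, 63.1 and 74.6.

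The members made up a smaller share of the fusion libraries, and mast protease cells were scarce after Skida1 deletion. Members were 2.23% (1.87 to 2.65) of kept cells in Control, 1.53% (1.31 to 1.78) in MLL-ENL and 1.55% (1.31 to 1.81) in Skida1-deleted. MLL-ENL was 1.46-fold lower than Control (interval 1.15 to 1.84), and Skida1-deleted over MLL-ENL was 1.01 (0.805 to 1.26). Thinned to 3000 UMIs a cell, the order of the shares was Control, MLL-ENL, Skida1-deleted (1.35, 1.16 and 0.930%), with Control and MLL-ENL nearer to each other. Mcpt8/Prss34-high cells were 0.675, 0.511 and 0.452% of kept cells, with ratios of 0.757 (0.495 to 1.17) and 0.883 (0.584 to 1.33), whose intervals include no difference. Mcpt4/Tpsb2-high cells were 0.381% (0.239 to 0.576), 0.242% (0.160 to 0.352) and 0.0602% (0.0221 to 0.131). Skida1-deleted had 4.02-fold fewer of them per kept cell than MLL-ENL (1.63 to 11.9), and MLL-ENL over Control was 0.636 (0.349 to 1.17). With the cells high for both pairs kept apart, the first was 5.59-fold (1.93 to 22.1). The libraries are 1 per group and sorted on KIT, so the gate, the sex and the genotype cannot be told apart as sources of such shares.

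A count by Cma1, which the rule does not use, gave the same contrast between the fusion libraries without the need for 3 detected rule genes. This count was added after seeing the data. Of kept cells, 22, 52 and 7 had Cma1 at 10 or more per 10000 UMIs, or 0.381, 0.466 and 0.0703%. All 22 in Control and all 7 in Skida1-deleted were members, but 20 of the 52 in MLL-ENL were not. Skida1-deleted was 6.64-fold lower than MLL-ENL (3.0 to 17.3), and MLL-ENL over Control was 1.22 (0.731 to 2.12). Over every barcode in the files, with no quality filter, there were 40, 54 and 7 such cells, with Skida1-deleted 6.83-fold lower than MLL-ENL (3.10 to 17.8) and MLL-ENL over Control at 0.690 (0.450 to 1.07). The order of Control and MLL-ENL therefore turned with the count used, and that of Skida1-deleted as lowest did not.

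**Figure D4:**
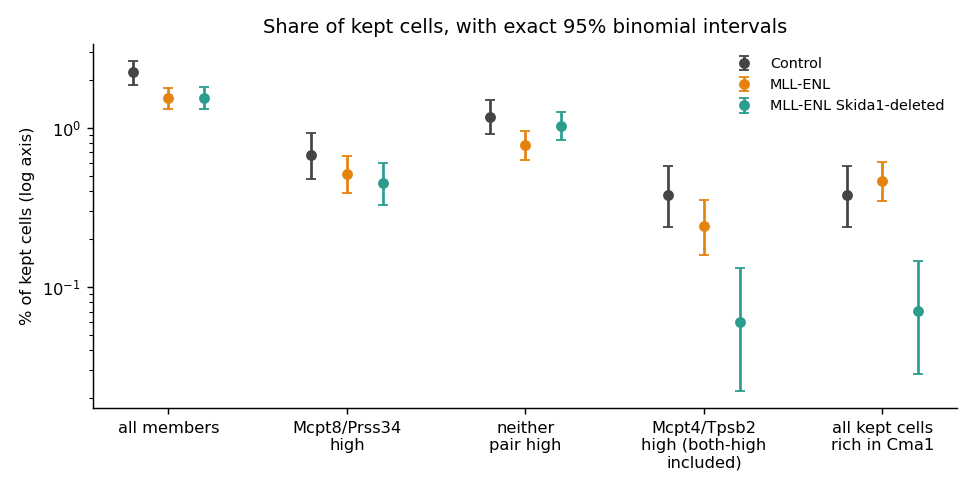
Points give the share of kept cells in % on a log axis for all members, the 3 sets and all kept cells with Cma1 at 10 or more per 10000 UMIs, by library (colour), with exact 95% binomial intervals as bars. For Mcpt4/Tpsb2-high and Cma1-rich cells the Skida1-deleted points, 0.0602 and 0.0703%, lie below those of the other libraries, and no interval there overlaps that of Control or MLL-ENL.

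Between MLL-ENL and Control, the members of the fusion library had more RNA of HoxA and other MLL fusion target genes and less of mitotic genes. A gene was counted as higher or lower at 1.5-fold or more, with 5 CPM in either library. Of 9597 measured genes 906 (9.44%) were higher in MLL-ENL and 1850 (19.3%) lower. The median log2 ratio of all genes was -0.14, and scaling by the median of gene ratios moved it to -0.04 and the share of higher genes among those counted from 32.9 to 46.2%. Both library comparisons share the MLL-ENL library, so their results are not independent of each other.

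Hoxa9, a homeobox gene raised by MLL fusions, was at 15.5, 76.0 and 68.5 CPM, 4.89-fold higher in MLL-ENL than in Control (3.34 to 7.35). Hoxa7 was at 24.0, 61.8 and 64.2 CPM (2.57-fold higher, 1.84 to 3.63) and its cofactor gene Meis1 at 32.5, 76.5 and 51.8 CPM (2.35-fold higher, 1.76 to 3.17). Pcdh7, a protocadherin gene, was at 8.48, 105 and 79.8 CPM, 12.4-fold higher (7.68 to 21.4). Control was thus the lowest library for each of these genes. MLL-ENL and Skida1-deleted lay close together for Hoxa9 and Hoxa7 and further apart for Meis1 and Pcdh7. Of 24 measured fusion target genes 13 were higher and 4 lower, with a median of 0.80, and all 4 measured HoxA genes were higher. The other kept cells had the same contrast for Hoxa9, at 19.4, 56.5 and 54.5 CPM, and in them 9 of 22 fusion target genes were higher and 3 lower, beside 4.37% and 10.8% of all genes.

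Skida1, the gene deleted in the third library, had no UMI in 129 Control members, 27 UMIs in 24 of 171 MLL-ENL members and 2 UMIs in 2 of 154 Skida1-deleted members. These are 0, 13.2 and 1.08 CPM, at least 9.36-fold higher in MLL-ENL than in Control from a floor of 3 UMIs, and 12.3-fold lower in Skida1-deleted than in MLL-ENL (3.08 to 106). The library labels and the targeted gene thus matched in these cells. The labels do not say whether the deleted part covers the 3' end that the kit reads.

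Some fetal-type RNA-binding and chromatin genes were higher in the fusion library as well, in members and in other kept cells. Hmga2, a chromatin gene of fetal stem cells, was at 45.2, 105 and 116 CPM, 2.33-fold higher in MLL-ENL (1.82 to 3.0), and Igf2bp2 was 2.87-fold higher. Of 8 measured genes of the fetal list 4 were higher and 1 lower, with a median of 0.39. In the other kept cells 5 of 10 were higher and 1 lower, with a median of 0.41. Lst1, a leukocyte gene, was at 47.6, 151 and 196 CPM, 3.16-fold higher (2.52 to 4.0). It was higher in the other kept cells too, at 8.15, 29.6 and 50.4 CPM.

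Mitotic genes were lower across the board in MLL-ENL members. Of 40 measured G2M genes 37 were lower and none higher, with a median log2 ratio of -1.04, against 15 of 40 with a median of -0.51 in the other kept cells. The difference between those medians has no test. Ube2c, which drives the exit from mitosis, was at 237, 82.4 and 98.2 CPM, 2.87-fold lower (2.41 to 3.44), and the mitotic kinase gene Plk1 at 50.9, 14.7 and 12.4 CPM, 3.46-fold lower (2.29 to 5.37). S phase genes moved less, with 6 of 36 lower and 3 higher. Without called doublets 38 of the 40 G2M genes were lower, and with members thinned to 3000 UMIs 32 were. Control cells were the highest for these mitotic genes and the other libraries lay together.

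Cebpa, Cebpb and most surface genes were lower in MLL-ENL members. Cebpa was at 118, 46.6 and 28.1 CPM, 2.53-fold lower (1.99 to 3.24), and had a UMI in 71.3, 38.0 and 25.3% of members. Cebpb, a factor of later granulocytes, was at 160, 61.3 and 47.5 CPM, 2.61-fold lower (2.12 to 3.24). Both were lower again in Skida1-deleted than in MLL-ENL, though Cebpb by less than 1.5-fold. Alox5ap, which feeds leukotriene synthesis, was at 414, 176 and 177 CPM, 2.36-fold lower (2.08 to 2.67), and Ms4a3, a granulocyte progenitor gene, at 166, 40.2 and 63.7 CPM, 4.13-fold lower (3.24 to 5.31). Of 20 measured surface genes 13 were lower and none higher, and of 16 cytokine receptor genes 7 were lower and none higher. Of 25 transcription factors of the fate list 5 were lower and 1 higher, a share of lower genes near the 19.3% of all genes. Fcgr3 was 1.65-fold lower (1.46 to 1.86), in the direction of the CD16/32 tag.

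The proteases did not move as 1 group. Cpa3 was at 942, 1489 and 872 CPM, 1.58-fold higher in MLL-ENL (1.49 to 1.67), and Mcpt8 at 366, 611 and 428 CPM, 1.67-fold higher (1.52 to 1.83). Tpsb2 was at 1153, 440 and 108 CPM, 2.62-fold lower (2.43 to 2.83). Mcpt4 had 159, 7 and 4 UMIs, with 56.6% of the Control UMIs in 1 cell. Of 12 measured proteases 4 were higher and 5 lower, and of 19 mediator genes 1 and 6. Genes of the rule are in both lists, 6 among the proteases and 1 among the mediators, so these counts are a description only. Tph1, at 248, 14.7 and 6.47 CPM, was 16.9-fold lower (11.7 to 25.2). Where neither pair was high, Cpa3 was at 536 and 530 CPM and Mcpt8 at 33.2 and 30.6 CPM in Control and MLL-ENL, so neither was higher there. Since the sums over all members mix how many cells are on each side with the level in a cell, the sides were compared next.

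**Figure D5:**
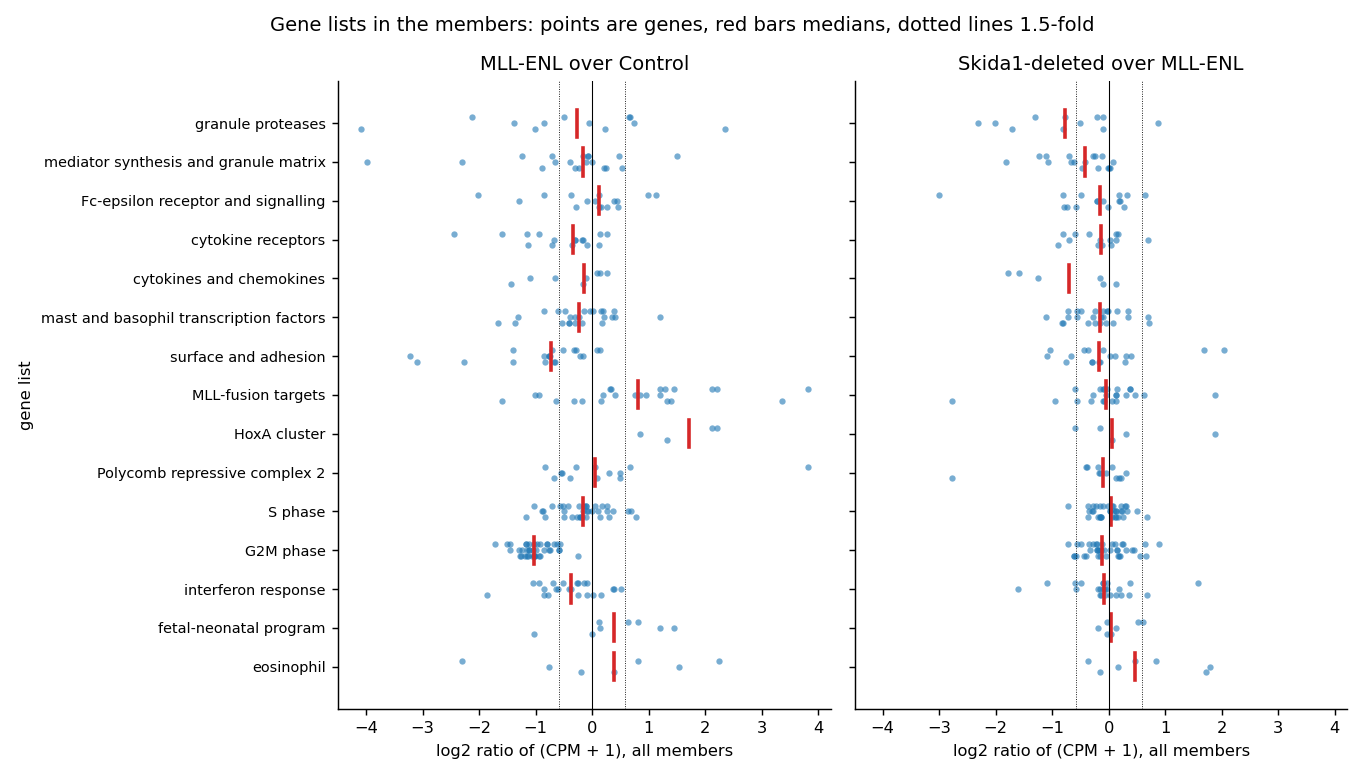
Each point is a measured gene of a list (rows), placed by its log2 ratio of (CPM + 1) over all members, in MLL-ENL over Control (left) and Skida1-deleted over MLL-ENL (right), with ratios beyond 5 drawn at 5. Red bars are medians and dotted lines 1.5-fold, and the G2M median lies at -1.04 on the left while the fusion target median lies at 0.80.

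Within Mcpt8/Prss34-high cells (39 and 57), the contrasts of HoxA and mitotic genes were seen again. Of 9714 measured genes 1394 (14.4%) were higher in MLL-ENL and 2662 (27.4%) lower. Of 40 G2M genes 39 were lower and none higher, with a median of -1.49, and of 23 fusion target genes 14 were higher and 4 lower. Hoxa9 was at 12.8, 70.2 and 59.0 CPM, 5.47-fold higher, and Cebpa at 147, 67.5 and 31.3 CPM, 2.18-fold lower. Cpa3 was at 732, 1431 and 1191 CPM, 1.96-fold higher (1.76 to 2.18). The intervals of Prss34 and Hdc include 1, with ratios of 1.05 (0.980 to 1.12) and 1.03 (0.880 to 1.22), and Mcpt8 was 1.53-fold higher (1.39 to 1.68). Where neither pair was high, 1183 of 9547 genes (12.4%) were higher and 1874 (19.6%) lower, and 31 of 40 G2M genes were lower with none higher.

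Within Mcpt4/Tpsb2-high cells, the serotonin enzyme, CGRP and most tryptase genes were lower in MLL-ENL and Kit was higher. The doublet-like Control cells weigh on these sums, so values without the 3 Control and 1 MLL-ENL cells that were called doublets or held 6 erythroid markers are given first, an alternative chosen after seeing the data. That left 19, 26 and 6 cells with 95541, 133464 and 29699 UMIs. Tph1 was at 4961, 217 and 404 CPM, 22.8-fold lower in MLL-ENL (15.7 to 34.5), and 11.2-fold lower with all cells. Calca was at 3485, 450 and 135 CPM, 7.75-fold lower (5.87 to 10.4), and 4.26-fold lower with all cells. Tpsb2, which helped to set this side, was at 22148, 6549 and 6701 CPM, 3.38-fold lower (3.12 to 3.66), and 1.79-fold lower with all cells. Tpsab1 was at 1560, 277 and 303 CPM, 5.63-fold lower (3.9 to 8.30), and 3.05-fold lower with all cells. Tpsg1, a membrane-bound tryptase, went the other way at 188, 794 and 606 CPM, 4.22-fold higher (2.54 to 7.39), and 8.27-fold higher with all cells. Control was the extreme library in each, with MLL-ENL and Skida1-deleted nearer to each other.

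The receptors of the mast protease side differed as well. Kit was at 429, 794 and 1145 CPM, 1.85-fold higher in MLL-ENL (1.28 to 2.72). Mrgprb2 was at 314, 15 and 337 CPM, in 13 of 19, 2 of 26 and 4 of 6 cells, 21.0-fold lower in MLL-ENL than in Control (5.32 to 181). Il7r was at 283, 22.5 and 101 CPM, 12.6-fold lower (3.87 to 64.8), and Ly6a had 26 UMIs in 9 Control cells and none elsewhere, at least 12.1-fold lower in MLL-ENL. Tyrobp, an adaptor of activating receptors, was at 607, 2001 and 1616 CPM, 3.30-fold higher (2.47 to 4.46), and Lst1 was in 3 of 19, 23 of 26 and 6 of 6 cells. Mitf had a ratio of 0.644 (0.232 to 1.76) and Gata2 of 0.716 (0.447 to 1.15), and both intervals include 1. With all cells Kit was 2.81-fold and Tyrobp 6.06-fold higher in MLL-ENL, and Mrgprb2 was 11.9-fold, Il7r 6.19-fold and Ly6a at least 5.77-fold lower. Calca, Il7r, Ly6a, Tyrobp and Lst1 on this side were chosen after their values were seen.

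List counts on this side rest on small sums. Of 9772 genes measured without the doublet-like cells, 40.3% were higher and 27.0% lower, so 1.5-fold is often passed in sums of this size. Of 12 proteases 1 was higher and 9 lower with a median of -2.12, beside 0.25 for all genes. Tpsb2 and Mcpt4, which set this side, and other rule genes are in that list, so its counts are a description only. With all cells 2 of 11 were higher and 7 lower with a median of -0.84, beside 0.06 for all genes. Without the doublet-like cells, of 21 fusion target genes 15 were higher and 3 lower. G2M genes turned with the cells used: 24 of 34 were higher and 3 lower without the doublet-like cells, and 9 of 38 higher and 15 lower with all cells, where 35.5% and 31.4% of 9723 genes were counted. S phase genes turned too, from 17 of 35 higher and 8 lower to 2 of 36 higher and 23 lower with all cells. Hdc and the proteoglycan gene Srgn turned as well, Hdc from 1.38-fold lower to 1.31-fold higher with all cells.

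Between the Skida1-deleted and MLL-ENL libraries, mast cell proteases, mediators and cytokines held several genes that were lower in Skida1-deleted members. Of 9357 measured genes 578 (6.18%) were higher in Skida1-deleted and 816 (8.72%) lower, against 0.936% and 0.491% of 8757 genes in the far more numerous other kept cells. Of 11 proteases 6 were lower and 1 higher with a median of -0.77, and of 17 mediator genes 7 were lower and none higher. The protease list holds 6 rule genes and the mediator list 1. Their counts here and in the sets below are therefore a description only. Of 6 cytokine and chemokine genes 3 were lower and none higher, with a median of -0.71. Cma1 was at 2346, 1292 and 525 CPM, 2.46-fold lower in Skida1-deleted (2.28 to 2.65), and Tpsb2 was 4.08-fold lower (3.49 to 4.78). Rab27b, which docks granules at the membrane, was at 52.0 and 14 CPM, 3.71-fold lower. Within the Mcpt4/Tpsb2-high cells Cma1, at 32425 CPM, was not below its 18333 CPM in MLL-ENL, with only 6 cells behind the first value. Rab27b there was at 539 CPM, against 566 CPM in MLL-ENL. Sums over all members mix the level in a cell with cell numbers, 27 Mcpt4/Tpsb2-high cells in MLL-ENL and 6 in Skida1-deleted. Within Mcpt8/Prss34-high cells none of 7 proteases was lower and 1 was higher. Mcpt8 and Prss34, which set this side, are in the protease list, so that count was partly fixed by the choice of cells. Of 14 mediator genes there 2 were lower and 1 higher, beside 18.4% and 15.6% of all genes. Where neither pair was high, the protease and mediator medians were -0.34 and -0.12, beside -0.05 for all genes.

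Over all members, genes of the fusion programme and of mitosis were counted about as often as all genes, of which 6.18% were higher and 8.72% lower. Of 24 fusion target genes 2 were higher and 3 lower, with a median of -0.04, and of 40 G2M genes 3 and 3. Within Mcpt8/Prss34-high cells 3 of the 40 G2M genes were higher and 13 lower, beside 15.6% and 18.4% of all genes there. Of 36 S phase genes in all members 1 was higher and 1 lower, and of 12 genes of Polycomb repressive complex 2, none and 1. That 1 lower Polycomb gene was Skida1 itself, the deleted gene, which is also 1 of the 3 lower fusion target genes. Hoxa10 stood apart with 3 UMIs in MLL-ENL and 15 in Skida1-deleted, a 5.5-fold ratio (1.56 to 29.6).

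Il4, Il6 and Il1rl1, which encodes the interleukin-33 receptor, were lower in Skida1-deleted than in MLL-ENL Mcpt8/Prss34-high cells. Il4, the cytokine that basophils give to type 2 responses, had 29, 30 and 4 UMIs in Mcpt8/Prss34-high cells, 41.4, 39.7 and 7.37 CPM, 5.39-fold lower in Skida1-deleted (1.90 to 21.0). Il6 had 26, 14 and 2 UMIs there, 5.03-fold lower (1.15 to 45.6), while its log2 ratio was 0.28 where neither pair was high. Il1rl1 was at 99.9, 75.5 and 36.9 CPM, 2.05-fold lower (1.21 to 3.60), and Cebpa 2.15-fold lower (1.22 to 3.98). In this set 15.6% of 9602 genes were higher and 18.4% lower, and 5 of 9 measured cytokine genes were lower and 1 higher. Of 16 cytokine receptor genes 5 were lower and 3 higher, with a median of 0.08 beside -0.04 for all genes. Prss34 was 1.42-fold lower (1.31 to 1.53). Over all members Fcer1a had 23 UMIs in MLL-ENL and 1 in Skida1-deleted, 20.9-fold lower (3.39 to 861), and Fcer1g 627 and 377 CPM. Of the 23 Fcer1a UMIs, 17 were in 5 of the 27 Mcpt4/Tpsb2-high cells, and Skida1-deleted had only 6 such cells. Within the Mcpt4/Tpsb2-high cells Fcer1g was at 3051 and 2963 CPM.

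A few members also carried eosinophil granule genes. Prg2, Prg3 and Epx, which encode eosinophil granule proteins, had 99.3, 98.1 and 96.8% of their UMIs in 5, 7 and 11 members with 10 or more of them per 10000. Of these cells 1, 1 and 4 were Mcpt8/Prss34-high, none Mcpt4/Tpsb2-high and the rest had neither pair high. Prg3 was at 46.6 and 157 CPM in MLL-ENL and Skida1-deleted, 3.37-fold higher in the latter (2.67 to 4.30), and Cebpe, a factor of granulocyte maturation, at 35.8 and 72.8 CPM, 2.03-fold higher (1.52 to 2.74). Eosinophil genes were not higher in members alone. In the other kept cells 2 genes of the eosinophil list were measured, and both were higher in Skida1-deleted than in MLL-ENL. Their median log2 ratio was 1.25, and 0.936% of all genes were higher there. The glycolysis gene Hk2 was at 35.3 and 95.5 CPM, 2.71-fold higher (2.05 to 3.61). Prg2 differed by set: it had 6, 109 and 902 UMIs in Mcpt8/Prss34-high cells and 540, 1412 and 642 UMIs where neither pair was high, so Skida1-deleted was the highest library in the first and not in the second.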

How the data were processed

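For each sample the authors deposited raw UMI counts as a sparse matrix, with 32285 genes as well as 10 tags of antibodies. Per the labels' protocols these are 10x Genomics 3' v3.1 libraries with feature barcodes, and per the submitters' processing notes Cell Ranger 6.0.1 and mm10 were used, while the file header names Cell Ranger 6.1.2. The deposited counts were used as they stand, with Python 3.11.15, numpy 2.4.6, scipy 1.17.1 and scanpy 1.11.5. Per library and set, UMIs were summed and scaled to CPM. Ratios are log2 of (CPM + 1), a scale that understates changes of low genes, and folds are ratios of CPM with exact conditional binomial intervals. Shares have exact Clopper-Pearson intervals. Intervals and floors cover counting error only. Doublets were called by Scrublet and kept; 6.63, 3.06 and 6.20% of kept cells were called.

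The members and the 15 gene lists were chosen with earlier results of these data known. Named genes are the 9 rule genes, a fixed set of regulators and receptors, up to 4 genes per list, and the 8 highest and 8 lowest ratios per library comparison (12 for members against other cells and per side of the split) above 30 CPM and 50 UMIs (100 UMIs for the split). The count code was tested on simulated data. Alternatives changed the member rule, the depth, the scaling, the floor, the pseudocount and the doublets.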

Additional observations from a re-analysis of the deposited data

How the results depend on the processing

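Counts of genes depended on the setting. For MLL-ENL over Control, 906 higher genes became 1736 with no floor on low values, 1773 higher and 2849 lower with members thinned to 3000 UMIs, 1394 higher in Mcpt8/Prss34-high members alone, and 3456 higher and 3051 lower in Mcpt4/Tpsb2-high members alone. For Skida1-deleted over MLL-ENL, 578 higher and 816 lower genes became 299 and 418 with a pseudocount of 5 CPM and 1850 and 1746 with no floor. They became 1711 and 1868 with thinned members, 1065 and 1443 with a sum of 16 per 10000, 1494 and 1771 in Mcpt8/Prss34-high members alone, and 279 and 382 when the counting interval of the fold also had to lie on that side of 1. The member share in Control, MLL-ENL and Skida1-deleted was 2.73, 1.97 and 1.87% with a sum of 5, 1.40, 0.951 and 0.733% with a sum of 16, 1.38, 0.834 and 0.903% with at least 4 genes, and 1.35, 1.16 and 0.930% with every cell thinned to 3000 UMIs. With cells high for both pairs kept apart, only MLL-ENL had 20 cells on each side and 3271 genes were higher on the Mcpt8/Prss34 side and 2943 on the other; with Control also in the comparison these were 1588 and 810 with both-high cells included and 1615 and 780 with sides set by a ratio of 4. As shares of all tag counts, CD48 was 1.74-fold higher in Mcpt8/Prss34-high than in Mcpt4/Tpsb2-high cells of MLL-ENL and 1.85-fold in Skida1-deleted, CD16/32 was 12.8-fold higher in MLL-ENL members than in other cells, and the CD201 ratio of the sides in MLL-ENL turned to 0.895.

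Log2 ratios of single genes turned sign mainly in subsets. For MLL-ENL over Control, Fcer1a was at -0.091 and Cma1 at 2.55 in Mcpt8/Prss34-high members, and where neither pair was high Tpsb2 was at 4.14, Ly6a at 0.59, Calca at 1.46, Cpa3 at -0.015, Mcpt8 at -0.12 and Cma1 at 3.76. Epx was at -0.40 with a sum of 16, and Gzmb at -1.31 without its richest cell. For Skida1-deleted over MLL-ENL, Calca was at 1.51 in Mcpt8/Prss34-high members, and where neither pair was high Il6 was at 0.28 and the median of the cytokine list at 0.066. In Mcpt4/Tpsb2-high cells, Elane was at 6.15 and Mpo at 1.51 for MLL-ENL over Control without the richest cell of each gene. The cause was not tested. No paired analysis was possible because each group has 1 library. The comparison of Skida1-deleted with MLL-ENL in Mcpt4/Tpsb2-high members alone and the split with a library left out were not run, since fewer than 20 cells were left on a side. Low counts limit single genes of the Mcpt4/Tpsb2-high cells most, above all the 6 of the Skida1-deleted library.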
